A study of Mus musculus with 24 samples.

Results

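Ly6a, Ly6e, Ctla2a, Ctla2b, Id1, Id2 and Id3 were followed through every group of a study of interleukin-4 (IL-4) in mouse bone marrow-derived macrophages. These 7 genes, of 23420 in the deposited tables, were picked by symbol. They came from earlier results of the same data, as genes named for being lower with IL-4. Id2 was not lower, and Id1 was not shown to be. The aim was to set genes low after IL-4 was washed out beside genes low while IL-4 was present. The levels of the 7 genes with and without IL-4 are therefore a description. These 7 genes are tested only for the antagonist GW9662 and for genotype. The choice did not use these contrasts. They share groups with the IL-4 contrasts that chose the genes, so they are not independent of the choice. Other genes of their pathways, from lists written with earlier results of these data known, are tested in the IL-4 contrasts too. Marrow cells of male C57BL/6 mice aged 3 months had been grown into macrophages over 6 days with M-CSF. In the antagonist experiment the cells had 24 h of a DMSO and ethanol vehicle, of IL-4, of GW9662 (a blocker of the ligand pocket of the nuclear receptor PPARγ, no dose labelled), or of IL-4 with GW9662. In the memory experiment, cells were labelled wild type or PpargKO. Pretreated cells had 24 h of IL-4, were washed and spent 24 h in differentiation medium. Cells without pretreatment are recorded here at 0 h of pretreatment and 0 h of washout. Equal washing and culture time of both arms is therefore not shown. Both were then read with or without 3 h of IL-4. The groups are called unstimulated, first IL-4, washed out and restimulated. The labelled IL-4 dose is 20 ng per µl, and the labels do not name the Cre line or the deleted part of Pparg. There were 24 samples in 12 groups of 2. The labels do not tell whether both samples of a group stem from different mice or dishes. A p-value therefore measures only the spread between these samples, which may be technical.

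Ly6a (the stem cell antigen Sca-1) and Ly6e are small surface proteins held to the membrane by a lipid anchor, and both genes are known as interferon-inducible. Ctla2a and Ctla2b encode small inhibitors of cysteine proteases that resemble the propeptide of cathepsins, and were first found in activated T cells and mast cells. The Id proteins have the helix-loop-helix part of a transcription factor without its DNA-binding part: they pair with E proteins such as Tcf3, Tcf4 and Tcf12 and keep them off DNA, and BMP signals through Smad proteins are their textbook inducers. IL-4 acts on macrophages through its receptor and the transcription factor STAT6.

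In GENCODE coordinates of GRCm38 (mm10) the genes lie in 2 pairs and 3 single places. Ly6e (chr15:74955051-74959905, plus strand) and Ly6a (chr15:74994877-74998031, minus strand) are 34971 bases apart, and Ctla2b (chr13:60895350-60897447, minus strand) and Ctla2a (chr13:60934155-60936625, minus strand) are 36707 bases apart. Id1 is at chr2:152736251-152737410 on the plus strand, Id2 at chr12:25093799-25097140 on the minus strand and Id3 at chr4:136143497-136145755 on the plus strand. The RefSeq promoter table (GRCm38.p6) held Ctla2b, Id2, Id3 and 2 starts of Ctla2a, of which the upstream one is shown. The Id2 and Id3 windows lie inside the longer GENCODE models of these genes. The 250 bases before the start of both Ctla2 genes are shown because these neighbours took different courses after washout, and those of Id2 and Id3 because 24 h of IL-4 left them on opposite sides of their control. Capitals mark the only matches, on both strands, to 3 motifs: TTCNNNNGAA (the STAT6-type site), GAAANNGAAA (an interferon response element) and GGCGCC (a GC-rich Smad-type element). The GGCGCC match of Id2 begins at position -231 from the start, and the other windows shown hold none of these letters. Of the 32851 promoters in the table, 5.85% held the STAT6-type letters, 2.98% the interferon response element and 9.59% the GC-rich element in a window of this length.
Ctla2a (chr13:60936626-60936875, minus strand): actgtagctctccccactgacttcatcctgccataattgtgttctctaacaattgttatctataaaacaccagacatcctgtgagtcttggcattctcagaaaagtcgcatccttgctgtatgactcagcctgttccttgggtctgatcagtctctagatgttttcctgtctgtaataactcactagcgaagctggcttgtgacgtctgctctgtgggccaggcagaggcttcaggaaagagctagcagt
Ctla2b (chr13:60897448-60897697, minus strand): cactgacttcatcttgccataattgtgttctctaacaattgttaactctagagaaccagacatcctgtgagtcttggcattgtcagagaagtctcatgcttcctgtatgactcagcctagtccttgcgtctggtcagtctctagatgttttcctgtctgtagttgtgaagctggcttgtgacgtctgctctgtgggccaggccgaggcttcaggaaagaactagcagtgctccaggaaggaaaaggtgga
Id2 (chr12:25096093-25096342, minus strand): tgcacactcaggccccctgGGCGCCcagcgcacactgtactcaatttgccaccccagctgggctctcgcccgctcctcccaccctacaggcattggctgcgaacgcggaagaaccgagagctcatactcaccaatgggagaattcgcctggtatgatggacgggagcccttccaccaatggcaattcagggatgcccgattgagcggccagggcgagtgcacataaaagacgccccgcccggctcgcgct
Id3 (chr4:136143572-136143821, plus strand): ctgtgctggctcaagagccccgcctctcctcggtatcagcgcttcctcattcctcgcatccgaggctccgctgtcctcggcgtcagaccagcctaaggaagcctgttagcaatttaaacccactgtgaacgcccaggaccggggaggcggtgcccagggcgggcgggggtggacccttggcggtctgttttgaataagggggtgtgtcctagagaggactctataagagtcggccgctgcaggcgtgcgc
The Ctla2a and Ctla2b windows share 91.2% of 228 aligned bases. Id2 and Id3 both have 62.8% GC and 18 CG pairs, against 46.8% and 3 for Ctla2a.

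The deposited values are means of the libraries of a group in CPM (reads scaled to the total of the library), from which whole read counts of both libraries could be recovered. They are called the deeper and the shallower library, since their replicate numbers are not known. Reads in genes ranged from 15821715 to 27880419 per antagonist library and from 5444284 to 16404848 per memory library, and 3 reads correspond to 0.105 to 0.181 CPM and to 0.183 to 0.526 CPM. In both experiments 9 of the 10 listed macrophage markers were in the tables and all 9 reached 1 CPM. Their sum moved with both factors: it was 43303 CPM with vehicle and 19447 CPM with IL-4, and 47779 and 19602 CPM in unstimulated wild-type and labelled knockout cells. One of them, Lyz2 (lysozyme), read 21966 to 30727 CPM in the 4 wild-type groups and 14.5 to 41.8 CPM in the 4 of the labelled knockout. Without Lyz2 the sums were 20030 and 13038 CPM, and 17051 and 19560 CPM. Reads over Pparg were lower in the labelled knockout only when unstimulated, and then slightly: it stood at 23.0, 24.7, 20.8 and 34.0 CPM in unstimulated, first IL-4, washed out and restimulated wild-type cells and at 21.1, 27.6, 26.6 and 40.9 CPM in the labelled knockout. Because the deleted part is not given, these reads do not check the genotype. The restimulated wild-type libraries stand apart: 37.0% of genes above 20 CPM differ over 1.5-fold between them, against 14.0% in the IL-4 group of the antagonist experiment and at most 0.383% elsewhere. Among the 9 fibroblast and stroma markers, Col1a1 read 491.8 CPM, Col1a2 464.0 and Pdgfrb 66.0 in the deeper restimulated wild-type library. Dcn (0.791 CPM), Thy1 (0.913) and Lum (0.0609) were under 1 CPM there. The 9 markers sum to 1173 CPM in that library and to 42.6 CPM in the shallower one, against 1.17 to 11.6 CPM in the other memory libraries. The 8 neutrophil markers sum to 285 and 82.1 CPM in these libraries and to 32.5 to 139.8 CPM in the other memory libraries. They moved with IL-4 as well, from 511 and 702 CPM with vehicle to 344 and 278 CPM with IL-4, and from 139.8 and 133 CPM unstimulated to 59.6 and 51.6 CPM washed out in wild-type cells. The 5 dendritic cell markers summed to 27.5 CPM with vehicle and 1903 CPM with IL-4, nearly all in 1 marker whose libraries were not separated. They went from 49.3 and 47.1 CPM unstimulated to 211 and 196 CPM washed out in wild-type cells. In the labelled knockout they went from 65.5 and 70.4 to 385 and 412 CPM. The part of these cells in the members' values was not tested, and values of restimulated wild-type cells are given for each library. In bulk RNA, fewer cells of a type and less RNA per cell cannot be told apart.

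Ly6a had the lowest share of its control after washout among the 7 genes in both genotypes, at 9.76% and 13.8%, with Ctla2a next at 23.0% and 15.1%. In the antagonist experiment it read 360 and 266 CPM with vehicle and 15.5 and 11.6 CPM after 24 h of IL-4, which is 23.0-fold lower (log2 ratio of the means with 1 CPM added, -4.43). With either library of either group left out this ratio ran from -4.63 to -4.19. The vehicle and IL-4 libraries did not overlap. In unstimulated wild-type cells of the memory experiment Ly6a stood at 139.7 CPM in both libraries, and after 3 h of IL-4 at 154 and 206 CPM, above the unstimulated libraries. After washout the libraries read 11.1 and 16.1 CPM, or 9.76% of the unstimulated mean. Beside it, 24 h with IL-4 in place left 4.34% of the vehicle level, in a separate experiment, and the difference between these shares was not tested. The 3 h of renewed IL-4 gave 9.37 and 15.7 CPM, and these libraries overlapped with the washed out ones. The labelled knockout was also low after washout, and at the first IL-4 its libraries lay below the unstimulated ones where those of wild type lay above: 153 and 147 CPM unstimulated, 134 and 132 CPM at the first IL-4, 20.2 and 21.0 CPM washed out and 17.1 and 16.4 CPM restimulated. Over the 8 memory groups the means fall into a low set of 12.5 to 20.6 CPM, which holds the 4 groups that had a day of IL-4, and a high set of 133 to 180 CPM, which holds the 4 that had not. Within the low set, the libraries of restimulated and washed out wild-type cells overlap with each other, and the labelled knockout lies above them in both states.

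Ly6e followed Ly6a with a smaller range on a much higher level of CPM. It stood at 4006 CPM with vehicle and at 1678 CPM with 24 h of IL-4, 2.39-fold lower, and the libraries of this experiment could not be separated for Ly6e. Unstimulated wild-type cells read 1791 and 1994 CPM, the first IL-4 gave a mean of 2245 CPM, and washed out cells read 861 and 875 CPM, 2.18-fold lower than unstimulated. Washout thus left Ly6e at 45.9% of its control, beside 41.9% after 24 h with IL-4. Restimulated wild-type cells read 578 CPM in the deeper and 1218 CPM in the shallower library, one on each side of the washed out pair. In the labelled knockout Ly6e read 1951 and 1990 CPM unstimulated, 2015 and 1877 CPM at the first IL-4, 1027 and 1034 CPM washed out and 984 and 936 CPM restimulated. These restimulated libraries lay close together, just below the washed out ones. Across the means of all 12 groups Ly6e was the gene most like Ly6a among 971 candidates that reach 10 CPM in both tables and range over at least 2-fold, by Pearson's r of log2 values centred within each experiment (r = 0.995, across groups that share libraries and depth, as a description). The next were Dmpk (0.985), a muscle-type kinase gene, and Ifitm3 (0.979), an interferon-induced membrane protein. Ifitm3 read 822 CPM with vehicle and 205 with IL-4, and 419 CPM unstimulated against 179 CPM washed out in wild-type cells. Those most like Ly6e after Ly6a were Dmpk (0.971) and Aldoc, an aldolase (0.968).

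**Figure D1:**
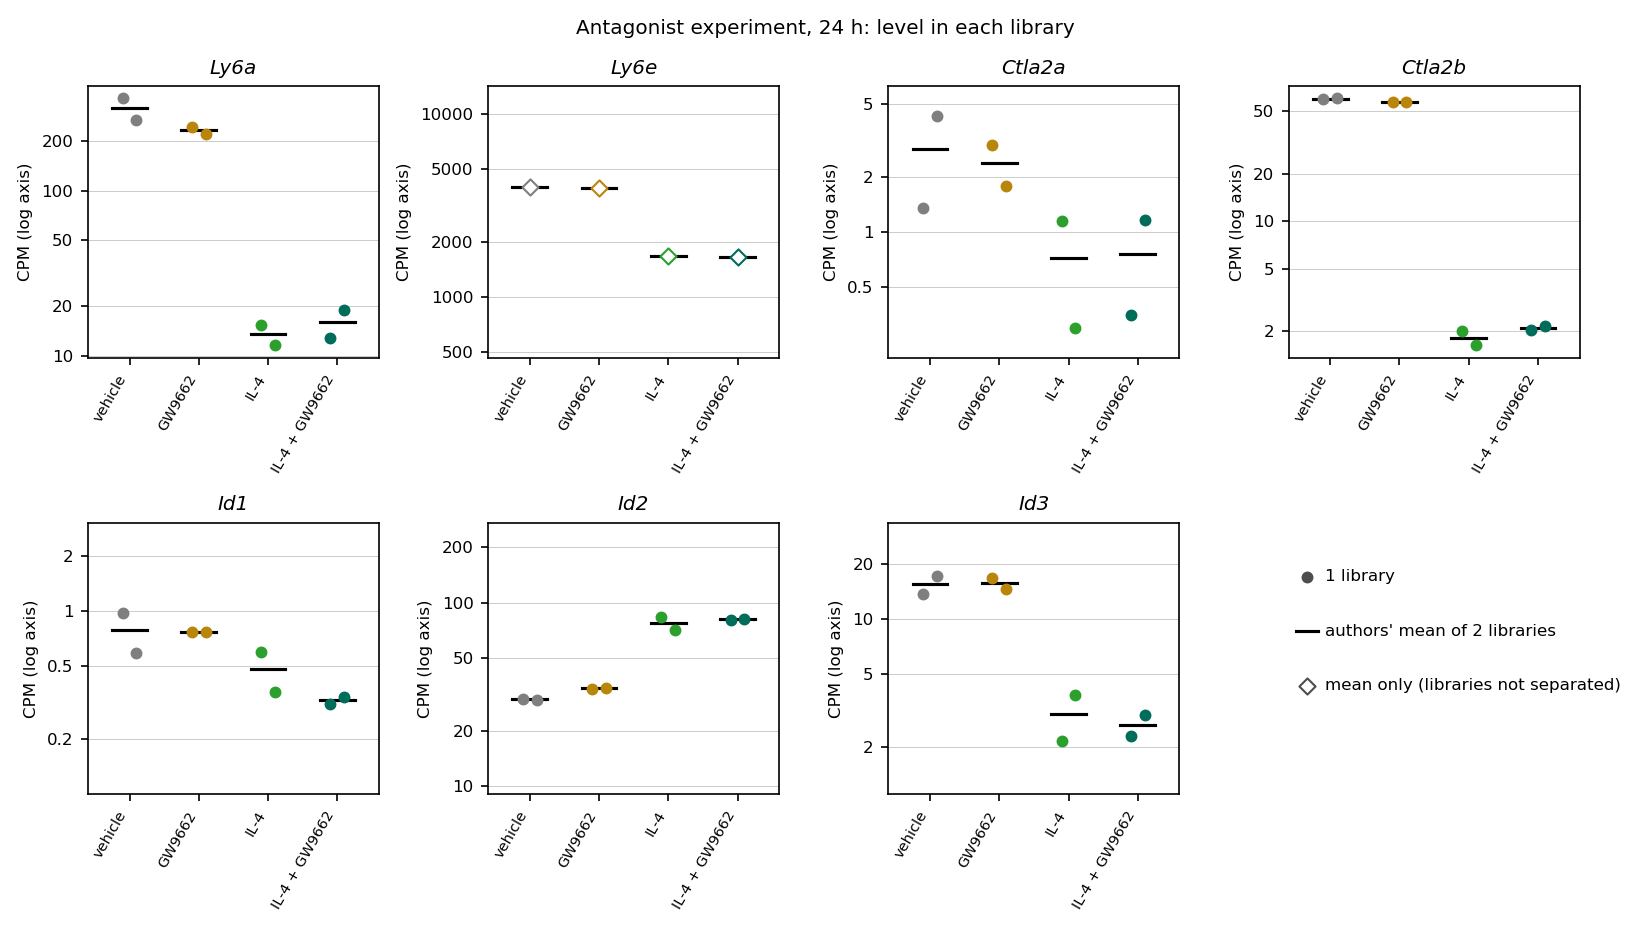
Level of each gene in CPM (log axis) after 24 h of vehicle, GW9662, IL-4 or both, with a dot per library, a bar at the deposited mean, and a diamond where the libraries were not separated. Ly6a, Ctla2b and Id3 are low in both groups with IL-4, with or without GW9662, Id2 is high in them, and Id1 is below 1 CPM in all 4.

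Ctla2b was as far below its control as Ly6a after a day with IL-4, and stood much nearer to it after washout. It read 59.8 and 60.5 CPM with vehicle and 2.02 and 1.63 CPM with IL-4, a 32.9-fold lower mean (log2 ratio -4.44, and -4.54 to -4.34 with any 1 library left out). The IL-4 mean was 3.04% of the vehicle mean, and the 4 libraries form pairs that lie far apart. In wild-type cells Ctla2b stood at 121 and 114 CPM unstimulated and at 57.4 and 64.2 CPM after 3 h of IL-4, already 1.93-fold lower. Washed out cells read 66.6 and 72.6 CPM, 59.4% of the unstimulated mean, so the libraries of the washed out and the unstimulated state did not overlap. Restimulation gave 49.9 and 45.4 CPM, below the washed out libraries in both. The labelled knockout gave 135 and 129 CPM unstimulated, 76.7 and 68.6 CPM at the first IL-4, 69.4 and 65.1 CPM washed out and 38.4 and 35.4 CPM restimulated. Thus 3 h of IL-4 was followed by a lower Ctla2b on both occasions and in both genotypes, by 1.46-fold to 1.93-fold. The genes most like Ctla2b over the 12 groups were Fbxl4, an F-box protein (r = 0.996), Pilra (0.990) and Pilrb2 (0.990), paired immunoglobulin-type receptors.

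Ctla2a, the neighbour with a similar promoter, was low after washout. No memory group was read at the end of the 24 h of IL-4, so when Ctla2a fell is not known. It was barely present in the antagonist experiment, with 39 and 73 reads (1.36 and 4.30 CPM) with vehicle and 25 and 5 reads (1.15 and 0.302 CPM) with IL-4. The log2 ratio was -1.15, and -1.62 to -0.45 with any 1 library left out. In wild-type memory cells it read 14.6 and 14.2 CPM unstimulated, 10.9 and 9.93 CPM at the first IL-4 and 3.92 and 2.72 CPM washed out, 23.0% of the unstimulated mean. The restimulated wild-type libraries disagree, at 19.2 CPM in the deeper and 5.92 CPM in the shallower one. The log2 ratio of restimulated over washed out cells was 1.65, and 0.68 without the deeper library and 2.23 without the shallower. In the labelled knockout Ctla2a read 16.6 and 15.2 CPM unstimulated, a mean of 13.3 CPM at the first IL-4 (from 120 and 57 reads), 2.39 CPM in both washed out libraries and 2.68 and 2.00 CPM restimulated, so the restimulated libraries there were close to the washed out ones. Ctla2a made up 10.5 to 11.1% of the summed level of both Ctla2 genes in the unstimulated libraries, and 3.33 to 5.56% in the washed out ones. Of the 50-base stretches sampled along the transcripts, 30.8% for Ctla2a and 73.9% for Ctla2b also occur in other gene models, mainly in 1 model, Gm49391, that spans both genes and is not in the tables. The split of reads between the 2 genes is therefore uncertain.

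**Figure D2:**
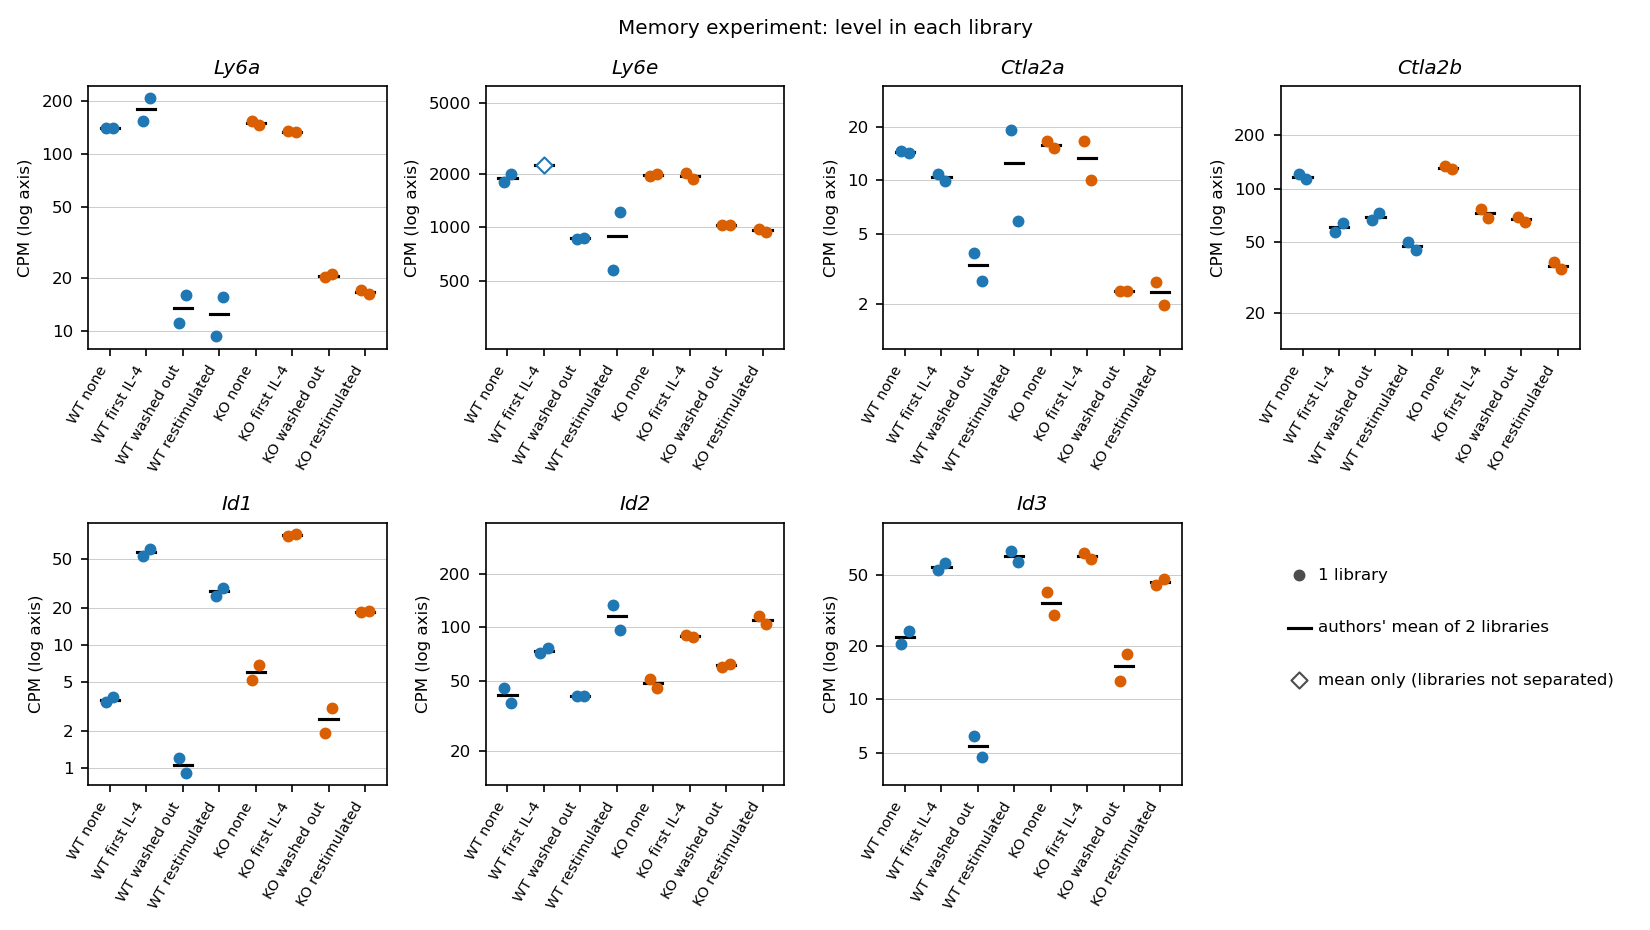
Level of each gene in CPM (log axis) in the 8 groups of the memory experiment, wild type (WT, blue) and labelled PpargKO (KO, orange), with a dot per library, a bar at the deposited mean and a diamond where the libraries were not separated. Ly6a and Ly6e are low in all 4 groups that had a day of IL-4, Ctla2b is lower after each IL-4 step, and Id1, Id2 and Id3 are high in the groups read after 3 h of IL-4.

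The 3 Id genes did not share 1 course, and Id2 was higher, not lower, with IL-4 in both experiments: the name of an IL-4-repressed group does not describe it. Id2 read 29.8 and 29.6 CPM with vehicle and 83.3 and 70.6 CPM after 24 h of IL-4, which is 2.59-fold higher. In wild-type cells it stood at 45.3 and 37.3 CPM unstimulated, 71.3 and 75.8 CPM at the first IL-4 and 41.0 and 40.7 CPM washed out. The washed out libraries lie between the unstimulated ones. Restimulation took Id2 to 134 CPM in the deeper and 96.3 CPM in the shallower library, and without the deeper one the log2 ratio to the washed out cells was 1.22 in place of 1.47. The labelled knockout read 50.9 and 45.6 CPM unstimulated, 89.7 and 88.4 CPM at the first IL-4, 59.8 and 62.1 CPM washed out and 116 and 104 CPM restimulated. Id2 was thus high in every group read with IL-4 in place. Its closest genes over the 12 groups were Ckap4, a membrane protein of the endoplasmic reticulum (r = 0.979), Ccl24, an eosinophil-attracting chemokine (0.975), and Ampd2, an AMP deaminase (0.968).

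Id3 was high at 3 h of IL-4 and low after 24 h. The vehicle libraries read 13.7 and 17.1 CPM and the 24 h IL-4 libraries 2.16 and 3.86 CPM, 5.11-fold lower (log2 ratio -2.03, and -2.38 to -1.75 with any 1 library left out). In wild-type cells Id3 stood at 20.6 and 24.4 CPM unstimulated and at 53.4 and 58.5 CPM after 3 h of IL-4, 2.49-fold higher. After washout it read 6.22 and 4.77 CPM, 24.4% of the unstimulated mean. Renewed IL-4 then gave 68.7 and 59.4 CPM, 11.7-fold above the washed out cells. Both libraries lay above the first response, the shallower one barely (59.4 against 58.5 CPM), in the group whose libraries stand apart. The washed out libraries were the lowest and the restimulated ones the highest of the wild-type groups. In the labelled knockout Id3 read 40.2 and 29.8 CPM unstimulated, 66.7 and 61.9 CPM at the first IL-4, 12.7 and 18.0 CPM washed out and 44.2 and 47.6 CPM restimulated. There the second exposure left Id3 below the first, with libraries that do not overlap. Irf7, the interferon regulatory factor, was the gene most like Id3 (r = 0.924), at 783 CPM with vehicle, 154 CPM at 24 h of IL-4, 105 CPM unstimulated and 403 CPM at the first IL-4 in wild-type cells. Next came Frmd6 (0.914) and Il4ra, the IL-4 receptor chain (0.885).

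Id1 gave the largest ratio at 3 h. It was at 3.44 and 3.75 CPM in unstimulated wild-type cells and at 52.8 and 60.2 CPM at the first IL-4, 15.7-fold higher. Washed out cells read 1.20 and 0.908 CPM, from 12 and 8 reads, which is 29.4% of the unstimulated mean. Restimulated cells read 25.2 and 29.2 CPM, 48.1% of the first response, and these libraries lie close together although they stand apart in other genes. The labelled knockout read 5.20 and 6.88 CPM unstimulated, 76.4 and 79.0 CPM at the first IL-4, 1.91 and 3.10 CPM washed out and 18.5 and 18.8 CPM restimulated, or 24.0% of its first response. In both genotypes Id1 was thus below unstimulated cells only after washout, and above them in each group read after 3 h of IL-4. In the antagonist experiment Id1 was below 1 CPM in every library, with 6 to 28 reads, and its 24 h response is not read here. A lower level with IL-4 in place was therefore not shown for Id1. No likeness is given for Id1 and Ctla2a, which stay under 10 CPM in that experiment. Over the means of the 8 memory groups Pearson's r was 0.902 for Id1 with Id3 and -0.259 for Id3 with Ctla2b, given as a description.

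Counted by 2-fold on the ratio of means with 1 CPM added, the contrasts that chose the genes come out as follows, and nothing is read from the counts. With 24 h of IL-4, 5 of the 6 members above 1 CPM were at least 2-fold lower and 1 higher, where 6.56% and 6.57% of all genes were. Without the shallower library of either group 3 of 5 were lower, since Ly6e then has no value and Ctla2a misses 2-fold. With GW9662 present, 4 of 6 were lower and 1 higher (6.21% and 8.76% of all genes). After 3 h of a first IL-4, none of 7 was lower and 2 were higher in wild-type cells (3.61% and 4.87%), and none was lower and 1 was higher in the labelled knockout (3.66% and 4.51%), or 2 without the deeper unstimulated knockout library. After washout 5 of 7 were lower in wild-type cells (1.33%) and 4 of 7 in the labelled knockout (0.463%), and none was higher (1.57% and 1.49%). Ctla2b, at 1.68-fold and 1.96-fold lower, lies just outside the 2-fold line in both genotypes. Ly6e lies just inside it in wild-type cells (2.18-fold) and just outside in the labelled knockout (1.91-fold). Id1 lies just inside it in the labelled knockout (log2 ratio -1.01). The washout count there was 3 with median-ratio size factors and 3 to 4 with a library left out. On restimulation none of 7 was lower and 4 were higher in wild-type cells (3.58% and 10.7%), a count that was 3 without the deeper library since Ctla2a then misses 2-fold. In the labelled knockout none was lower and 2 were higher (2.24% and 3.52%). At the second exposure against the first, 3 of 7 were at least 2-fold lower in wild-type cells (0.909%) and 4 of 7 in the labelled knockout (0.626%), and none was higher (6.78% and 1.66%). That wild-type count was 1 without the deeper restimulated library and 1 without the shallower first IL-4 library, where Ly6e has no value. Without the deeper restimulated library, Ly6a was the member still 2-fold lower (log2 ratio -3.44). The count of the labelled knockout for the second exposure against the first ran from 3 to 5 with a library left out.

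**Figure D3:**
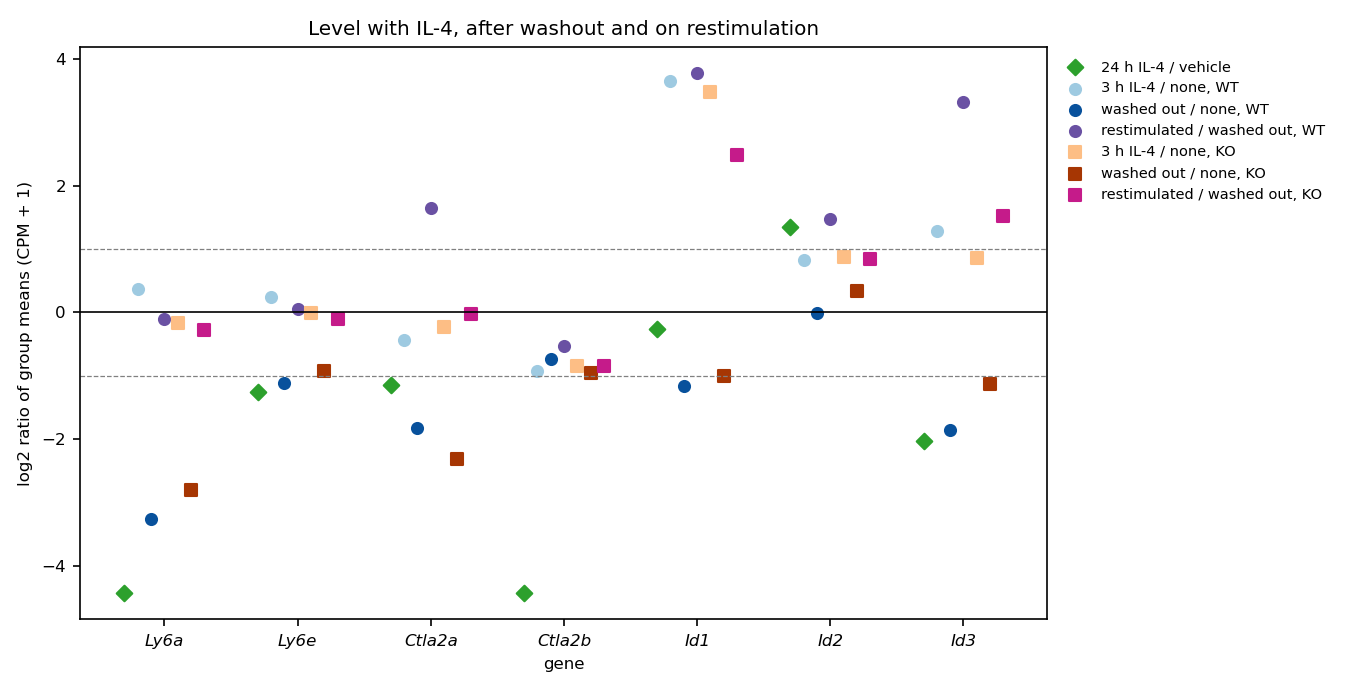
Log2 ratio of group means, with 1 CPM added, for each gene in 7 comparisons, with dashed lines at 2-fold; round points are wild type (WT), squares labelled PpargKO (KO), and the diamond the antagonist experiment. Ly6a lies at -4.43 with 24 h of IL-4 and at -3.27 and -2.80 after washout, whereas Ctla2b lies at -4.44 and then at -0.74 and -0.96.

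GW9662 was tested to ask whether PPARγ's ligand pocket takes part in these levels. No member passed with the antagonist alone, of 5 tested, or with IL-4 plus GW9662 against IL-4, of 4 tested, or in the difference of the IL-4 response with and without it, of 5 tested, by limma with Benjamini-Hochberg adjustment (0% of all genes called in each). No member passed by limma-voom or any other setting run. At an unadjusted p under 0.05 the counts over all genes were 256, 1 and 13, of 10875, 10804 and 11169 tested. Each lies below the share of 0.05 expected where nothing differs, so these tests were conservative. The lack of calls therefore does not show that GW9662 left the members unchanged. Ly6a read 241 and 221 CPM with GW9662 alone and 13.0 and 19.1 CPM with both agents. Its difference with GW9662 was -0.42 on the log2 scale (95% interval -0.84 to -0.01, adjusted p = 0.99 by limma), and with IL-4 present 0.21 (-0.67 to 1.10). For Ctla2b, at 57.1 and 57.5 CPM with GW9662 and 2.04 and 2.18 CPM with both, the difference with IL-4 present was 0.14 (-0.28 to 0.56). Id2 read 33.8 and 34.3 CPM with GW9662 and 80.7 and 80.9 CPM with both, and Id3 16.7 and 14.5 CPM and then 2.31 and 3.00 CPM. Their differences with IL-4 present were 0.08 (-0.25 to 0.40) and -0.11 (-0.88 to 0.67). With GW9662 alone, Id2 differed from vehicle by 0.19 (0.04 to 0.34, adjusted p = 0.99 by limma) and Id3 by 0.02 (-0.34 to 0.39). The difference of the IL-4 response with and without GW9662 was less well bounded, at 0.63 for Ly6a (-0.34 to 1.61), 0.11 for Ctla2a (-1.93 to 2.16), 0.21 for Ctla2b (-0.25 to 0.67), -0.12 for Id2 (-0.47 to 0.24) and -0.13 for Id3 (-0.99 to 0.72). Ctla2a, at 2.99 and 1.80 CPM with GW9662 alone, differed from vehicle by -0.08 (-0.95 to 0.78), and its level with both agents was 0.355 and 1.16 CPM. Ly6e had no test here, since its libraries were not separated, and stood at 3946 CPM with GW9662 and at 1651 CPM with both.

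Genotype was the other contrast the choice of genes had not used, though the wild-type groups behind that choice are a side of it. The members called were Id genes, in shares to be read against those of all genes. In unstimulated cells Id1 was higher in the labelled knockout, by 0.60 on the log2 scale (SE 0.16, adjusted p = 0.013 by limma), and Id3 by 0.61 (SE 0.15, adjusted p = 0.010), with the libraries of both genotypes apart. These were 2 of 7 members, where 18.4% of all genes were called and 7.79% were higher. In washed out cells Id3 was higher by 1.32 (SE 0.20, adjusted p = 0.0022) and Id2 by 0.57 (SE 0.12, adjusted p = 0.024), 2 of 7 members where 3.33% of all genes were called and 1.39% were higher. Id1 (0.75, SE 0.21, adjusted p = 0.055) and Ly6a (0.58, SE 0.17, adjusted p = 0.060) missed the threshold there. At the first IL-4 none of 7 passed (9.18% of all genes, and 2285 of 11241 at an unadjusted p under 0.05), nor in restimulated cells (0.0168%, and 1048 of 11890). The largest estimate there was that of Ctla2a in restimulated cells, at -1.83 (95% interval -3.16 to -0.51, adjusted p = 0.41), and it was -1.06 without the deeper and -2.61 without the shallower wild-type library. It passed without group weights (adjusted p = 0.014) and by limma-voom (-2.36, adjusted p = 0.0495), as did Ctla2b without group weights (-0.36, adjusted p = 0.048). At the first IL-4, limma-voom called Ly6a (-0.42, adjusted p = 0.023) and Id1 (0.46, adjusted p = 0.0034), and median-ratio size factors called Ctla2b (0.27, adjusted p = 0.048). With 1 first IL-4 wild-type library left out, Ly6a passed without the deeper (-0.63, adjusted p = 0.0047) and Ctla2b without the shallower one (0.33, adjusted p = 0.040). Id3 of washed out cells lost its call without the shallower knockout library (1.08, adjusted p = 0.051), and Id2 without that library (0.54, adjusted p = 0.22) and without group weights (0.57, adjusted p = 0.17). In unstimulated cells Id1 and Id3 lost theirs without group weights (adjusted p = 0.12 and 0.13) and without the deeper wild-type library (0.56 and 0.49, adjusted p = 0.12 and 0.15). There Id1 lost its call also without the shallower knockout library (0.43, adjusted p = 0.11) and Id3 without the deeper one (0.40, adjusted p = 0.093). In washed out cells, Ly6a passed without the shallower wild-type library (0.83, adjusted p = 0.0020) and Id1 without the deeper knockout library (1.00, adjusted p = 0.028).

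**Figure D4:**
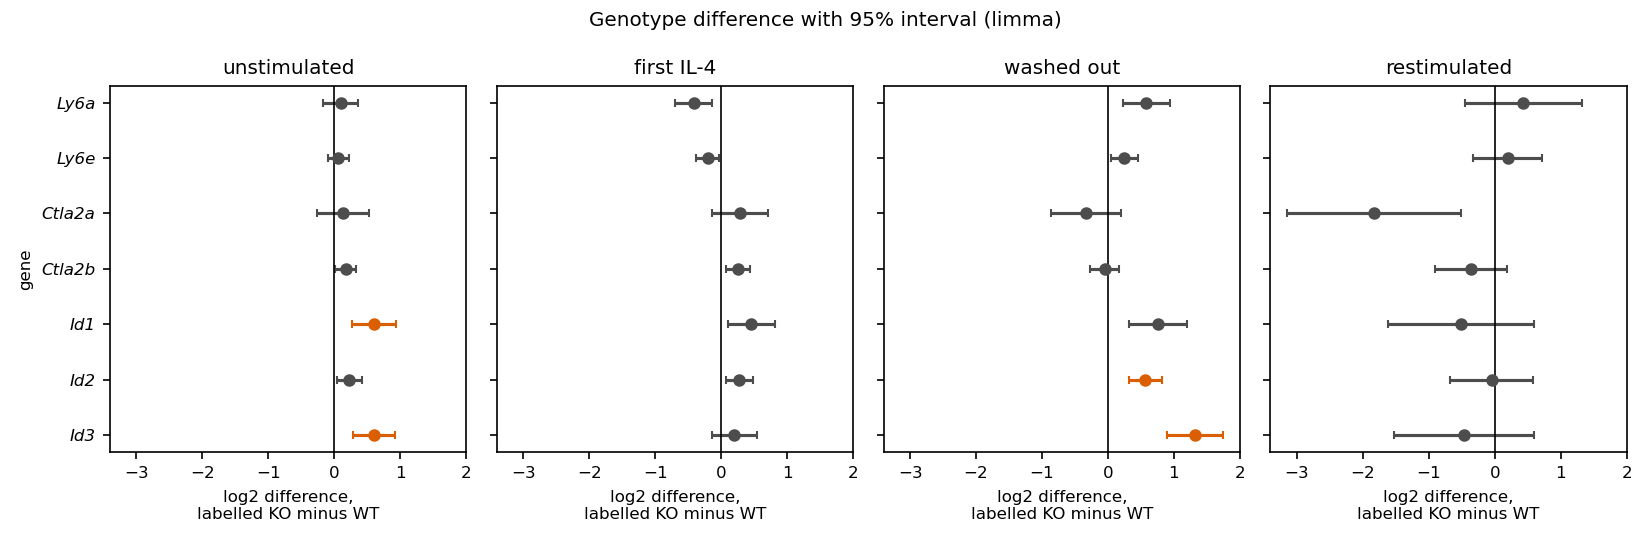
Difference of labelled PpargKO (KO) minus wild type (WT) in log2(CPM + 1) for each gene in 4 states, with 95% intervals by limma and calls at an adjusted p under 0.05 in orange. Id1 and Id3 are called in unstimulated cells and Id2 and Id3 in washed out cells, and the intervals are widest in restimulated cells.

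Genotype moved together with how reads in near-identical genes were counted. Libraries fell into 2 kinds by the level of such genes, all 8 labelled knockout libraries were of the low kind, and 7 of the 8 wild-type libraries were of the high kind. The kind and the genotype cannot be told apart in unstimulated cells, where with kind as a term the differences were 0.81 for Id1 (adjusted p = 0.57) and 0.93 for Id3 (adjusted p = 0.50). The wild-type library of the low kind is the shallower washed out one. It read 4.77 CPM of Id3, against 12.7 and 18.0 CPM in the labelled knockout, and 40.7 CPM of Id2, against 59.8 and 62.1 CPM. With kind as a term the washed out difference was 1.48 for Id3 and 0.57 for Id2. No other memory group mixes both kinds, so the wild-type side of these values rests on that library alone. The sampled stretches of Id1, Id3 and Ly6e occurred in no other gene model, and 0.521% of those of Id2 did.

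Whether the genotypes responded differently was tested for each step, and none of 7 members passed in any of the 3 (at most 0.0261% of all genes called, and 1437, 888 and 1126 genes at an unadjusted p under 0.05). The response of Ly6a to the first IL-4 differed by -0.52 on the log2 scale, labelled knockout minus wild type (95% interval -0.91 to -0.13, adjusted p = 0.32). After washout that difference for Id3 was 0.72 (0.19 to 1.25, adjusted p = 0.64). On restimulation it was -1.79 for Id3 (-2.93 to -0.65, adjusted p = 0.30) and -1.27 for Id1 (-2.46 to -0.08, adjusted p = 0.50). The Id3 difference passed without group weights (adjusted p = 0.034) and without the deeper washed out wild-type library (-1.95, adjusted p = 0.025). With 1 library of the restimulated wild-type group left out, it is the remaining one that stands for the group, and neither choice gave a call among the 7 members.

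Interferon genes, the set that Ly6a and Ly6e are known to belong with, were lower after 24 h of IL-4 as well. Of 32 listed interferon-stimulated genes (Ly6a and Ly6e not among them), 25 fell and none rose by limma, with a median log2 difference of -1.81 beside -0.02 over all genes, where 8.39% of all genes fell and 9.82% rose. With the deeper or the shallower IL-4 library left out, 21 and 18 of them fell. Ifit3, an antiviral RNA-binding protein, fell, from 169 CPM with vehicle to 4.12 CPM (log2 difference -5.07, SE 0.35, adjusted p = 0.00015), and Cxcl10, a T cell-attracting chemokine, fell from 26.8 to 0.336 CPM (-4.39). At 3 h of a first IL-4 in wild-type cells 8 of the 32 rose and 4 fell, with a median of 0.10 (24.7% of all genes rose and 25.1% fell). Zbp1, a nucleic acid sensor, rose from 19.0 to 68.3 CPM (1.79, SE 0.11). After washout 10 fell and 2 rose (median -0.33, and 7.12% of all genes fell). Ifi27l2a fell from 260 to 98.0 CPM (-1.41, SE 0.11), and Oasl2 was among the 4 with the largest falls (-1.17). Rsad2 (viperin) instead rose, from 16.6 to 30.6 CPM (0.85, SE 0.24). In the labelled knockout 8 of 31 fell and 5 rose after washout (10.5% and 9.57% of all genes), and Ifi27l2a was among those that fell (257 to 158 CPM, -0.69). Of the 18 genes of interferon signalling, Irf7 fell after washout in wild-type cells (105 to 38.7 CPM, -1.42, SE 0.11) and was higher in washed out cells of the labelled knockout (78.5 CPM, 1.01, SE 0.11, adjusted p = 0.00021). Genotype moved with counting kind: with kind as a term, calls over all genes were 9 unstimulated and 10 at the first IL-4. The counts that follow were made without that term. Of 32 interferon-stimulated genes, 1 was higher and 6 lower in unstimulated cells of the labelled knockout, near the 18.4% of all genes called. At the first IL-4 none was higher and 10 were lower (9.18%). In washed out cells 3 were higher and none lower (3.33%), and none was called in restimulated cells (0.0168%). In washed out cells the median was -0.09, opposite in sign to the 3. The 3 were Ifi27l2a (158 against 98.0 CPM, 0.69, SE 0.11), Bst2, the virion tether (185 against 130 CPM, 0.51, SE 0.09), and Oasl2 (84.5 against 59.8 CPM, 0.51, SE 0.12).

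The partners and inducers of the Id proteins were read from lists of E proteins and of BMP, TGF-beta and Smad genes. Tcf4, an E protein, fell at 24 h of IL-4 from 80.1 to 31.6 CPM (-1.32, SE 0.18, adjusted p = 0.0025 by limma) and at 3 h from 109 to 48.4 CPM (-1.16, SE 0.09). After washout none of 3 measured E proteins was called in wild-type cells. Of 24 measured genes of the BMP, TGF-beta and Smad list, 5 fell and 1, Acvrl1, rose at 24 h (8.39% of all genes fell and 9.82% rose), and 3 or 2 fell with the deeper or the shallower IL-4 library left out: Bmp2 fell from 5.98 to 0.351 CPM (-2.37, SE 0.33), Tgfbr2, a TGF-beta receptor, from 357 to 110 CPM (-1.70) and Smad3 from 28.4 to 6.26 CPM (-2.02). At 3 h in wild-type cells 4 of 25 rose and 6 fell, shares at or below those of all genes (24.7% and 25.1%). Bmp2 rose from 2.95 to 5.70 CPM (0.74, SE 0.25), Ski, a Smad repressor, rose from 217 to 438 CPM (1.01, SE 0.06), and Smad3 fell from 22.2 to 7.83 CPM (-1.40). After washout 1 of 25 was called, the inhibitory Smad6, which fell from 3.06 to 1.48 CPM (-0.71, SE 0.22, adjusted p = 0.041).

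Among relatives of the Ly6 genes, 6 of 28 in the tables were tested in wild-type cells, and 3 fell and 1 rose after washout (7.12% and 7.42% of all genes). In the labelled knockout 4 were tested, and 1 fell and 1 rose (10.5% and 9.57% of all genes). Ly6c1 fell from 3.66 to 0.402 CPM (-1.79, SE 0.24) and Ly6c2, the monocyte antigen, from 2.21 to 0.585 CPM (-1.01, SE 0.24). Of the sampled stretches of Ly6a, 9.89% occur in other gene models, Ly6c1 and Ly6i among them. Plaur, the urokinase receptor, rose from 39.2 to 52.3 CPM (0.41, SE 0.11). Cysteine cathepsins, whose propeptide the Ctla2 proteins resemble, were also read, without a check of which ones these inhibit. Of 9 measured, 4 rose after washout in wild-type cells and none fell, where 7.42% of all genes rose and 7.12% fell. Ctsk (3.75 to 21.9 CPM, 2.27, SE 0.20) and Ctsh (158 to 331 CPM, 1.07, SE 0.10) led the rise. In the labelled knockout 4 of 9 rose and 2 fell (9.57% and 10.5% of all genes). Of 3 measured cystatin-type inhibitors, Cstb rose (249 to 311 CPM, 0.32, SE 0.08). Ctla2 genes were first found in T cells and mast cells, so markers of both were read. Of 8 T cell markers Cd3d, Cd3e and Cd3g were at most at 0.157 CPM, while Il7r (31.8 to 143 CPM in the memory experiment) and Cd4 (7.12 to 16.01 CPM) carried the summed level of 42.6 to 160 CPM. The 7 mast cell and basophil markers summed to at most 5.99 CPM in an antagonist library, with Prss34 highest and Mcpt4 at 0. In the memory experiment they summed to 2.43 CPM in the deeper restimulated wild-type library, the one with 19.2 CPM of Ctla2a, and to at most 0.340 CPM in the others. That restimulated library also holds 1173 CPM of fibroblast and stroma and 285 CPM of neutrophil markers. The antagonist library with 5.99 CPM of mast cell and basophil markers read 2.99 CPM of Ctla2a. The part of these cells in the Ctla2a values was not tested.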

How the data were processed

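The 24 samples comprise 8 of the antagonist experiment and 16 of the memory experiment. Poly-A RNA was made into libraries with an Illumina kit, per the labels' protocols. TopHat2 2.0.7, Cufflinks 2.0.2 and mm10 are named, per the submitters' processing notes, and what each did to the tables is not given in the sources used here. The authors deposited 1 table per experiment, whose unit is recorded here as signal: each column is the mean CPM of the 2 libraries of a group, with column sums of 951943 to 1054527 and 957489 to 1022961. Each mean was separated into whole reads of both libraries by their read steps, and 170910 of 171808 values above 0 (99.5%) had 1 solution. This assumes that the authors averaged 2 whole-read libraries with constant steps.

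The 7 genes and all lists were chosen with earlier results of these data known. Every member is named, as are the 3 genes most like each by r. Of a context list, the text names at most 4 called genes per direction and comparison, those with the largest log2 difference, and any needed to explain a count of 5 or fewer. Tests used limma 3.58.1 (R 4.3.3) with trend on log2(CPM + 1) of single libraries, fitted on all groups of a table with 1 weight per group, keeping each gene whose mean reached 1 CPM in a compared group, and an adjusted p under 0.05 (Benjamini-Hochberg over all genes tested). A value that was not separated entered as 1 observation of weight 2. Weights were 0.21 for the IL-4 group and 0.08 for restimulated wild-type cells. Changes of low genes are understated by the added 1 CPM. Words of 50 bases, every 10 bases of each transcript, were compared with other GENCODE models. The code was tested on simulated data. Alternatives were a pseudocount of 0.5 CPM, no group weights, limma-voom, no filter on low values, median-ratio size factors, counting kind as a term, and each library left out.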

Additional observations from a re-analysis of the deposited data

How the results depend on the processing

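No paired analysis was possible because the columns carry no replicate numbers. With a library left out, the lone sample of its group is assumed to vary like the other groups.

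Counts of members called moved as follows, and the cause was not tested. Unstimulated genotypes gave 2, and 0 without group weights, 0 with counting kind as a term, 1 by limma-voom and 1 to 2 with a library left out. First IL-4 gave 0, and 1 with median-ratio size factors, 2 by limma-voom and 0 to 1. Washed out cells gave 2, and 1 without group weights, 1 without the filter on low values and 0 to 3. Restimulated cells gave 0, and 2 without group weights and 1 by limma-voom. The restimulation response gave 0, and 1 without group weights and 0 to 1. With a library left out, members 2-fold lower in wild-type cells numbered 0 to 1 at the first IL-4 and 1 to 3 at the second against the first. In the labelled knockout they numbered 3 to 4 after washout and 3 to 5 at the second against the first. Calls over all genes in the 4 states were 2079, 1032, 378 and 2. They were 358, 311, 32 and 1316 without group weights, 9, 10, 272 and 5 with kind as a term, and 133 (washed out) and 0 (restimulated) without the filter. By limma-voom restimulated cells gave 337. With a library left out the 4 counts ran from 858 to 1529, 623 to 825, 40 to 643 and 0 to 338, the last without the shallower restimulated wild-type library. GW9662 gave 0, and 24 with kind as a term, where its response difference gave 1. The first IL-4 response gave 3, and 0 without group weights, 6 without the filter, 16 with kind, 1 by limma-voom and 1 to 20. The washout difference gave 0, and 1 with kind and 0 to 498, and the restimulation response 0, and 42 without group weights, 1 by limma-voom and 0 to 445, both highest without the deeper washed out wild-type library.

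Of 63 tested single-gene results, 19 changed sign with a library left out and 4 under another setting, 21 in all and none of them called under any setting. Of 70 described ones, 7 changed sign with a library left out, in wild type Id2 after washout, Ly6a and Ly6e on restimulation and Ctla2a at the second against the first IL-4, and in the labelled knockout Ly6e and Ctla2a at the first IL-4 and Ctla2a on restimulation. As log2 values, Ctla2a with GW9662 was 0.36 with kind, 0.13 by limma-voom and -0.66 to 0.50 with a library left out, and its response difference -0.33, -0.13 and -0.47 to 0.70. With kind, Ly6a was -0.40 between unstimulated and -0.064 between restimulated genotypes. The other ranges with a library left out were as follows. Id3 with GW9662 ran from -0.13 to 0.18. For IL-4 plus GW9662 against IL-4, Ly6a ran from -0.050 to 0.47, Id2 from -0.042 to 0.19 and Id3 from -0.42 to 0.20. For that response difference, Id2 ran from -0.23 to 0.00035 and Id3 from -0.44 to 0.18. Between genotypes, Ly6e ran from -0.017 to 0.14 unstimulated, Ctla2a from -0.050 to 0.63 at the first IL-4, Ctla2b from -0.11 to 0.014 washed out, and Ly6e from -0.34 to 0.73 and Id2 from -0.28 to 0.19 restimulated. Differences of the first response ran from -0.18 to 0.50 for Ctla2a, -0.32 to 0.022 for Id1 and -0.086 to 0.19 for Id2, that of washout from -0.098 to 0.39 for Id1, and those of restimulation from -0.50 to 0.19 for Ly6a and -0.59 to 0.48 for Ly6e. Depth limits Id1 and Ctla2a, with under 100 reads per library in the antagonist experiment.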
